A study of Mus musculus with 8 samples.

Results

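Smooth muscle of the gut wall shortens when a calcium signal activates the kinase of the myosin light chain, so that myosin pulls on actin filaments anchored at dense bodies and at the cell membrane. Interstitial cells of Cajal lie among the muscle cells and generate the electrical slow waves that pace contraction. In whole intestine both cell types lie mainly in the muscle coat, outside the mucosa. The set described here is a list of 29 genes, 27 of the contractile cell and 2 of the pacemaker cell (Kit and Ano1), out of 49585 gene identifiers measured. All 29 were found by symbol, and all 29 passed the filter on low values, a mean of at least 0.5 FPKM (reads scaled by gene length and by library depth) over the libraries.

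RNA was taken from the intestine of 8 C57BL/6 mice, 4 that had received Klebsiella (a bacterium of the enteric group) and 4 that had received Lactobacillus (a lactic acid bacterium), with 1 library per mouse. The dose, the route, the duration, the age of the mice, the part of the intestine and the presence or absence of the muscle coat in the pieces are not stated in the labels. No untreated mice were among the samples analysed. Libraries held between 40455910 and 55447220 reads after the authors' filter, and between 15753959 and 21548070 reads in genes as recovered from the FPKM values. Klebsiella replicate 3 and Lactobacillus replicate 2 stood apart in the position gene Hoxb6 (40.2 and 45.2 FPKM, at most 3.87 elsewhere), and Klebsiella replicate 2 and Lactobacillus replicate 3 in the pancreatic transcript Ctrb1 (418 and 112 FPKM, at most 2.99 elsewhere). Klebsiella replicate 4 had the lowest share of bases at quality 30 or above, 90.65% against 94.03% to 94.57%. The group comparison below is also given with these libraries left out.

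Over all libraries, the muscle genes differed more from mouse to mouse than between the recipient groups. Most of them were highest in Klebsiella replicate 3 and lowest in Klebsiella replicate 4, which are mice of the same group. Of the 29 genes, 22 had their highest level in Klebsiella replicate 3, against 14.5% of the 16865 genes tested, and 21 had their lowest in Klebsiella replicate 4, against 19.2%. The highest library exceeded the lowest more than 2-fold for 25 of the 29 genes, against 40.0% of all genes tested. The median ratio of highest to lowest was 2.78 for the members and 1.72 over all genes above 0 in every library. In bulk tissue, fewer muscle cells and less muscle RNA per cell cannot be told apart.

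Summed over the 29 genes, FPKM made up 0.832%, 0.922%, 1.13% and 0.386% of the library total in Klebsiella replicates 1 to 4. The sums came to 0.763%, 0.496%, 0.590% and 0.704% in Lactobacillus replicates 1 to 4. The muscle score of a library, the mean log2(FPKM + 0.5) of the 29 genes, was 6.09, 6.21, 6.48 and 5.14 in the Klebsiella libraries and 5.96, 5.44, 5.67 and 5.94 in the Lactobacillus libraries. The Klebsiella libraries thus held both the 3 highest scores and the lowest one, and the groups overlapped. The score spanned 1.34 log2 units among Klebsiella and 0.52 among Lactobacillus recipients, while the group means differed by 0.23. The SD of the score was 0.58 among Klebsiella and 0.25 among Lactobacillus recipients. Without Klebsiella replicates 3 and 4 the other 6 libraries spanned 0.77 log2 units. That span crossed the groups, from 5.44 in a Lactobacillus library to 6.21 in a Klebsiella library. The remaining Klebsiella libraries, at 6.09 and 6.21, lay above every Lactobacillus library (at most 5.96). In Klebsiella replicate 4 the members stood at a median of 53.7% of their mean in the other 7 libraries, where all genes tested stood at 94.9%.

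**Figure D1:**
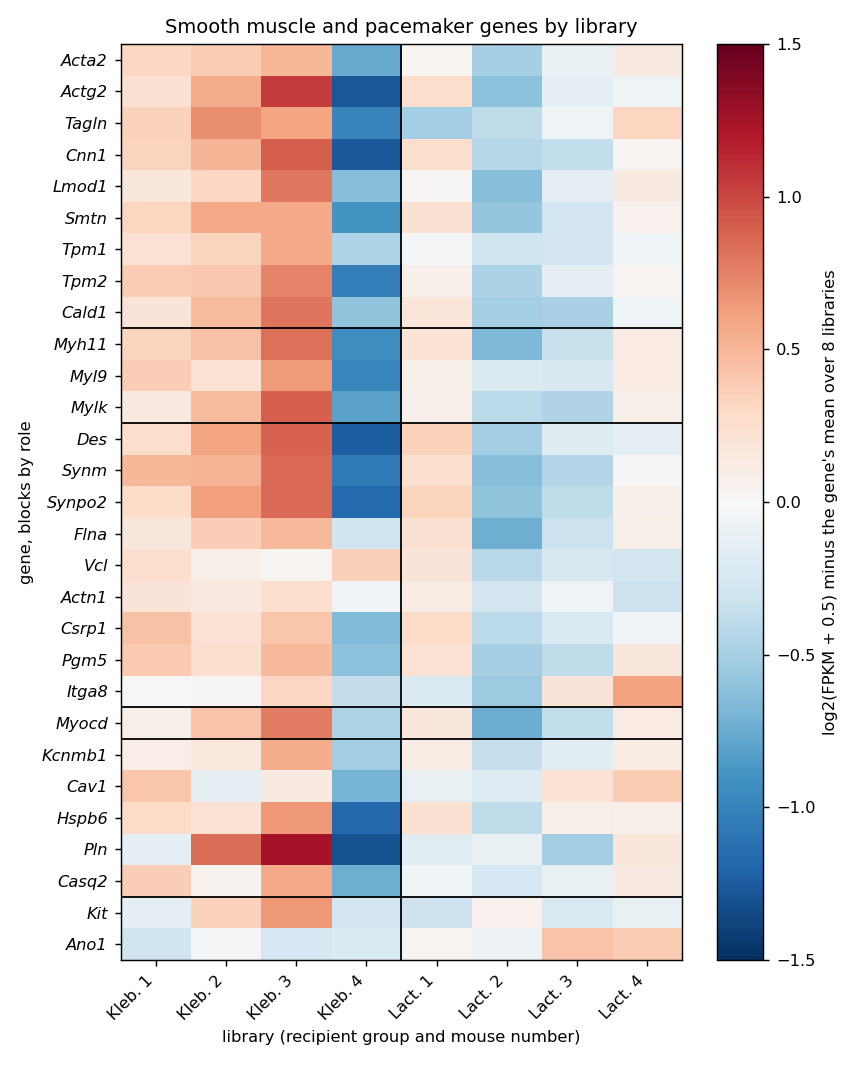
Each row is a gene, in blocks by role (thin filament; myosin and its kinase; intermediate filament, dense body and adhesion; Myocd; membrane and calcium handling; pacemaker cells), and each column is a library. Colour gives log2(FPKM + 0.5) minus the mean of that gene over the 8 libraries; 28 of 29 genes lie above their mean in Klebsiella replicate 3 and 1 of 29 does so in Klebsiella replicate 4.

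Most thin filament genes showed this pattern. Acta2 encodes alpha smooth muscle actin, found in visceral and vascular smooth muscle, and Actg2 encodes gamma smooth muscle actin, the enteric isoform. Acta2 was at 557, 583, 636 and 265 FPKM across Klebsiella replicates 1 to 4, against 457, 318, 417 and 492 across Lactobacillus replicates 1 to 4. Klebsiella replicates 1 to 3 lay above every Lactobacillus library and Klebsiella replicate 4 below all of them. The group means were 510.1 ± 166 and 421 ± 75.0 FPKM (SD, n = 4 each). Its log2 difference, Klebsiella minus Lactobacillus on the log2(FPKM + 0.5) scale, was 0.22 (SE 0.27, limma adjusted p 0.868).

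Actg2 ranged more widely. It was at 619.6, 781, 1095 and 220.0 FPKM across the Klebsiella libraries and at 638, 347, 478 and 506 in the Lactobacillus libraries, a 4.98-fold span against 2.39-fold for Acta2. The groups overlapped, with Lactobacillus replicate 1 above Klebsiella replicate 1. The log2 difference was 0.28 (SE 0.44, limma adjusted p 0.904).

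Tpm1, a tropomyosin that lies along the actin filament, had the smallest span of the 9 thin filament genes, 2.05-fold. Its levels were 677, 732, 862 and 420.0 FPKM across the Klebsiella and 575, 471, 477 and 553 in Lactobacillus libraries. Here too the first 3 Klebsiella libraries lay above all Lactobacillus libraries and the fourth below them. On the log2 scale the groups differed by 0.33 (SE 0.21, limma adjusted p 0.774). The remaining thin filament genes are Cnn1 (calponin), Cald1 (caldesmon), Tpm2, Lmod1 (leiomodin, which nucleates actin filaments), Smtn (smoothelin) and Tagln (transgelin). All 9 genes of this role had a positive log2 difference, between 0.22 and 0.44, and 8 of 9 were lowest in Klebsiella replicate 4. None passed the threshold.

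Tagln was at only 1.85 to 7.11 FPKM, from 31 to 132 reads, while Cnn1 was at 164 to 741 FPKM. Transgelin is known as an abundant smooth muscle protein. On GRCm38 Tagln lies on chromosome 9 from 45929619 to 45936058, and 67.9% of its 1988 exonic bases are shared with exons of Gm48529 or Pcsk7. Gm48529 is annotated on the opposite strand and was listed at 0.744 to 4.75 FPKM. Reads in the shared bases cannot be assigned without strand, and the labels do not say whether the counting used strand, so the level of Tagln is uncertain. Among the other members the shared share was at most 25.5%, for Vcl with Ap3m1.

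The myosin motor followed the thin filament. Myh11, the smooth muscle myosin heavy chain, was at 226, 242, 316 and 93.6 FPKM across Klebsiella replicates 1 to 4. It was at 207, 112, 142 and 195 FPKM in Lactobacillus replicates 1 to 4. Klebsiella replicates 1 to 3 were again above all Lactobacillus libraries, and Klebsiella replicate 4 was the lowest of the 8. The group means were 219 ± 92.6 and 164 ± 44.6 FPKM (SD, n = 4 each). The log2 difference was 0.33 (SE 0.36, limma adjusted p 0.848), from 10774 to 34191 reads per library.

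Mylk, the light chain kinase, was at 96.4, 122, 164 and 50.1 FPKM across the Klebsiella and at 92.3, 66.3, 64.2 and 93.1 FPKM in Lactobacillus libraries. Its difference of 0.35 on the log2 scale (SE 0.33, limma adjusted p 0.820) did not pass. Myl9, the regulatory light chain that this kinase phosphorylates, ranged from 391 FPKM in Klebsiella replicate 4 to 1207 in Klebsiella replicate 3. Both genes therefore had their extremes in the same mice as Myh11.

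**Figure D2:**
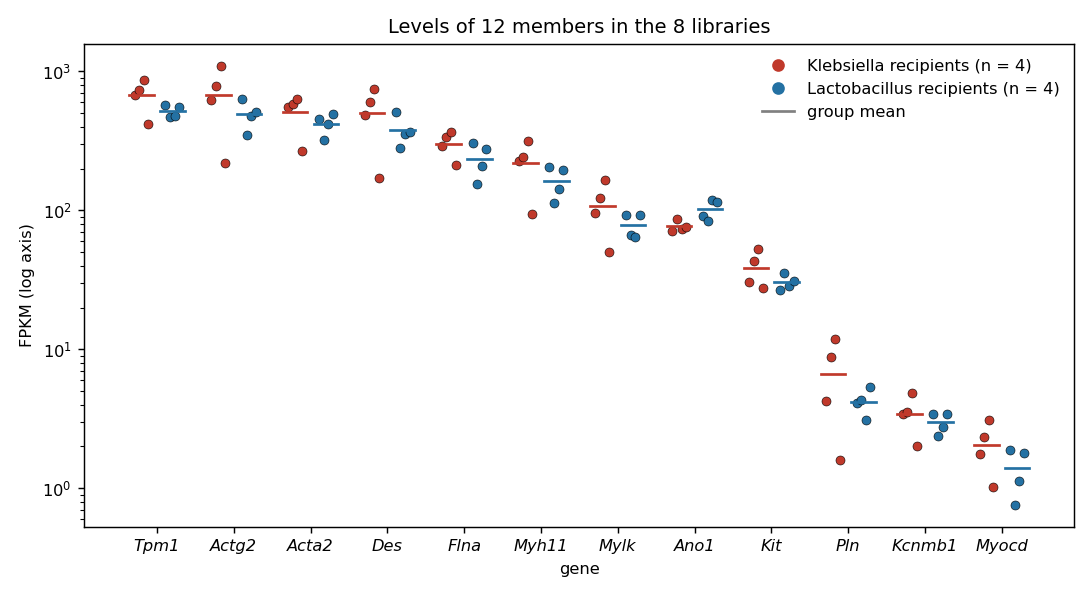
Points are single libraries of 12 members on a log axis of FPKM, ordered by mean level, with Klebsiella recipients in red, Lactobacillus recipients in blue, and lines at the group means (n = 4 each). For most contractile genes 1 red point, Klebsiella replicate 4, lies under all blue points; Ano1 has its 2 highest points in Lactobacillus recipients, at 119 and 114 FPKM.

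Genes of the intermediate filament, dense bodies and adhesion sites split in behaviour. Des encodes desmin, the muscle intermediate filament protein, and Synm its partner synemin. Des was at 483, 605, 743 and 171 FPKM across the Klebsiella and at 509, 281, 355 and 364 in Lactobacillus libraries. Its groups overlapped and differed by 0.25 in log2 units (SE 0.42, limma adjusted p 0.909). Synm and Synpo2, an actin-binding protein of the dense body, spanned 3.86-fold and 4.19-fold with the same extremes.

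Flna, filamin A, which crosslinks actin, was at 291, 336, 364 and 210.4 FPKM across the Klebsiella and at 304, 156, 207 and 275 in Lactobacillus libraries. Here Lactobacillus replicate 2 was lowest and Klebsiella replicate 4 was above it and above Lactobacillus replicate 3. On the log2 scale the groups differed by 0.37 (SE 0.24, limma adjusted p 0.777). Filamin A is made by many cell types besides muscle.

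Vcl did not have the pattern of the contractile genes, and Actn1 had it only in part. Vcl encodes vinculin of focal adhesions and Actn1 the non-muscle alpha-actinin. Vcl was at 19.9, 17.7, 17.1 and 21.5 FPKM across the Klebsiella and at 19.0, 12.3, 14.0 and 13.6 in Lactobacillus libraries, so that Klebsiella replicate 4 was the highest library and not the lowest. The log2 difference was 0.37 (SE 0.14, unadjusted p 0.0296, limma adjusted p 0.774). Actn1 ranged from 45.8 to 68.5 FPKM, a 1.496-fold span, with its highest level in Klebsiella replicate 3. Klebsiella replicates 1 to 3 lay above all Lactobacillus libraries, but Klebsiella replicate 4, at 56.0 FPKM, was not the lowest library. The groups differed for Actn1 by 0.27 in log2 units (SE 0.12, unadjusted p 0.0464, limma adjusted p 0.774). Neither passed the threshold, and the groups overlapped for both. Itga8, an integrin, was highest in Lactobacillus replicate 4 (7.14 FPKM) and lowest in Lactobacillus replicate 2 (2.96 FPKM). Its log2 difference was -0.019 (limma adjusted p 0.993). Csrp1 and Pgm5 were lowest in Klebsiella replicate 4, and highest in Klebsiella replicates 1 and 3 respectively. Of the 9 genes of this role, 8 differences were positive and 1 negative, 6 genes were highest in Klebsiella replicate 3 and 5 lowest in Klebsiella replicate 4.

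Srf, the serum response factor that drives both contractile genes and genes of stimulated cells, Zyx (zyxin, of focal adhesions) and Itga5 (an integrin) were no members; they were named after their values were seen, because they were ordered much as Vcl was. Srf was at 47.9, 47.8, 25.6 and 38.4 FPKM across the Klebsiella and at 34.1, 20.03, 20.8 and 16.4 in Lactobacillus libraries. Zyx was at 115, 108, 51.2 and 96.2 FPKM against 79.0, 41.8, 41.8 and 39.2. In all 3 genes Klebsiella replicate 4 and Lactobacillus replicate 1 exceeded Lactobacillus replicates 2 to 4, and Klebsiella replicate 3 was the lowest Klebsiella library. The log2 differences were 0.80 for Srf (SE 0.26) and 0.87 for Zyx (SE 0.30), each with a limma adjusted p of 0.774. A list of 8 early response genes (Fos, Egr1 and others), which respond within minutes to handling, had mean log2 scores of 5.93, 7.31, 4.39 and 5.76 in Klebsiella and 5.88, 5.20, 5.78 and 4.56 in Lactobacillus libraries. This score was lowest of all libraries in Klebsiella replicate 3, while Srf, Zyx and Itga5 were lowest there only among Klebsiella libraries. The part of early response in the levels of Srf, Zyx, Itga5 and Vcl was not tested.

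Serum response factor and myocardin act on a short promoter element, the CArG box. It was searched in RefSeq promoter windows (GRCm38.p6, 250 bases before to 50 after the start) of the 25 members found in that table; Actg2, Myh11, Myocd and Tagln were not matched. The exact element, which is the same on both strands, occurred for 2 of the 25 members (8.0%), Myl9 and Vcl, and for 1.81% of all 27025 genes in the table (1.63% of its 32851 windows). These windows are shown because the 2 genes went different ways in Klebsiella replicate 4, Myl9 to its lowest level and Vcl to its highest; capitals mark the element. The Myl9 window is at chr2:156775214-156775513 and the Vcl window at chr14:20929148-20929447, both on the plus strand. The element begins 161 bases before the start in Myl9 and 227 bases before it in Vcl. A match is a description of the letters and not of binding. Copies with a mismatch, and sequence outside these windows, were not searched, so the other members cannot be said to lack the element.
Myl9: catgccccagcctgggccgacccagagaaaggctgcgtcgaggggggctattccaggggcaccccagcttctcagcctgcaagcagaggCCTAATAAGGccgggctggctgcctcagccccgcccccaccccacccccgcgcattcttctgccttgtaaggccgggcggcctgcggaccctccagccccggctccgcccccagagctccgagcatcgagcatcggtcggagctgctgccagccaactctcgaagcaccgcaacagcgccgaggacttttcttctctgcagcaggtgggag
Vcl: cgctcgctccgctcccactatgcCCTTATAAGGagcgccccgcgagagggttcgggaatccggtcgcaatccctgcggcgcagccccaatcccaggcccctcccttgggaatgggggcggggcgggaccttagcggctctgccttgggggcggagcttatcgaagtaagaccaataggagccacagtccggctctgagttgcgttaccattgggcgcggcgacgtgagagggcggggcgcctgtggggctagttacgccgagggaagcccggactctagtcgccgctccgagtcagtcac

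Myocd encodes myocardin, the coactivator of serum response factor that specifies smooth muscle. It was at 1.75, 2.33, 3.09 and 1.03 FPKM across the Klebsiella and at 1.88, 0.760, 1.13 and 1.80 in Lactobacillus libraries. Klebsiella replicate 3 was highest, as for most contractile genes, but Lactobacillus replicate 2 rather than Klebsiella replicate 4 was lowest. These levels rest on 43 to 144 reads per library. On the log2 scale the groups differed by 0.41 (SE 0.31, limma adjusted p 0.792).

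Membrane and calcium genes spanned 2.17-fold (Cav1) to 7.43-fold (Pln), and all 5 were lowest in Klebsiella replicate 4. Pln, phospholamban, which restrains the calcium pump of the sarcoplasmic reticulum, was at 4.22, 8.74, 11.9 and 1.60 FPKM across the Klebsiella and at 4.11, 4.31, 3.10 and 5.33 in Lactobacillus libraries. Its span was the widest of the 29 genes, and both ends lay in the Klebsiella group. The log2 difference was 0.32 (SE 0.49, limma adjusted p 0.902), from 67 to 468 reads.

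Kcnmb1, the beta subunit of the large-conductance calcium-activated potassium channel, was at 3.401, 3.54, 4.83 and 2.02 FPKM across the Klebsiella and at 3.41, 2.36, 2.76 and 3.42 in Lactobacillus libraries. On the log2 scale the groups differed by 0.14 (SE 0.23, limma adjusted p 0.908), and the groups overlapped. Casq2 (calsequestrin) and Hspb6 (a small heat shock protein of muscle) had the same extremes as Kcnmb1. Cav1 (caveolin of membrane pits, also abundant in endothelium) was likewise lowest in Klebsiella replicate 4, at 87.8 FPKM, but highest in Klebsiella replicate 1, at 191. In that library the endothelial score was also the highest, 4.66 against 3.94 to 4.41 elsewhere; the part of endothelium in the Cav1 level was not tested.

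The pacemaker genes parted from the contractile genes and from each other. Kit encodes the receptor of stem cell factor, on which interstitial cells of Cajal depend. It was at 30.5, 42.9, 52.7 and 27.4 FPKM across the Klebsiella and at 26.9, 35.2, 28.6 and 31.0 in Lactobacillus libraries. Klebsiella replicates 2 and 3 were the highest, and Klebsiella replicate 4 lay within the Lactobacillus range. The group means were 38.4 ± 11.7 and 30.4 ± 3.59 FPKM (SD, n = 4 each). The log2 difference was 0.29 (SE 0.20, limma adjusted p 0.781).

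Ano1 encodes the calcium-activated chloride channel of the slow wave, which secretory epithelia also make. It was at 71.4, 86.9, 73.5 and 76.1 FPKM across the Klebsiella and at 90.8, 83.6, 119 and 114 in Lactobacillus libraries. The 3 highest levels were in Lactobacillus recipients, and the groups overlapped through Klebsiella replicate 2 and Lactobacillus replicate 2. The group means were 77.0 ± 6.92 and 102 ± 17.3 FPKM (SD, n = 4 each). Its log2 difference of -0.39 (SE 0.13, unadjusted p 0.0143) had the smallest unadjusted p of the 29 genes and did not pass after adjustment (limma adjusted p 0.774).

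Mast cells also carry Kit, so their markers were read beside it. The 10 mast cell genes summed to 6.93 to 12.1 FPKM across the Klebsiella and 8.12 to 12.2 FPKM in Lactobacillus libraries, and 5 of the 10 were below the filter. The genes of highest mean in that list were Gata2 (1.82 to 5.13 FPKM), Mcpt1 (1.43 to 5.31) and Cma1 (0.388 to 2.42). Cpa3, the mast cell carboxypeptidase, was at most 0.624 FPKM, and Fcer1a, Ms4a2 and Mcpt4 were listed at 0 in at least 1 library each. The part of mast cells in the Kit level was not tested. Of 7 other genes used as markers of interstitial cells of Cajal, 5 differences were positive and 2 negative (median 0.21), and 0 passed. Etv1, a transcription factor of these cells, was at 4.88, 6.33, 7.75 and 4.66 FPKM across the Klebsiella and at 4.95, 6.28, 3.47 and 5.48 in Lactobacillus libraries, highest in Klebsiella replicate 3 as Kit was. Kitl, the ligand of Kit, was at 43.4 FPKM for Klebsiella replicate 4 but 73.2 for Klebsiella replicate 3, with the other libraries between. Not all genes of the list shared this order: 3 of 7 were highest in Klebsiella replicate 3 and 2 of 7 lowest in Klebsiella replicate 4. The mean log2 score of the list was 3.30, 3.22, 3.24 and 2.85 in Klebsiella replicates 1 to 4. In Lactobacillus replicates 1 to 4 it was 3.08, 3.07, 2.91 and 2.99. The score was thus lowest in Klebsiella replicate 4, as the muscle score was, but highest in Klebsiella replicate 1. Gja1, a gap junction protein, was highest in Klebsiella replicate 4 at 26.1 FPKM, and Cd34, a surface protein also found on endothelium and fibroblasts, was lowest in Klebsiella replicate 3 at 14.3 and highest in Klebsiella replicate 1 at 30.2.

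The first comparison between the recipient groups asked which members differed on average. With limma, 0 of 29 members passed an adjusted p of 0.05, and 0 of 16865 genes did (0.0%). Without adjustment, 3 of 29 members had a p under 0.05 (Vcl, Actn1 and Ano1), against 6.07% of all genes (2.55% higher and 3.52% lower in Klebsiella recipients), and voom on recovered reads, which called 0 genes, also gave 3. The groups overlapped for all 29 members, where they did not for 2.99% of all genes (1.19% with Klebsiella higher, 1.8% lower). Of the 29 log2 differences, 25 were positive, against 46.4% of all genes. The 4 negative ones were those of Ano1, Cav1, Itga8 and Hspb6. The median of the 29 differences was 0.28, against -0.02 over all genes.

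That lean changed in size, and once in sign, when single mice or pairs of mice were left out. Without Klebsiella replicate 4 the median log2 difference of the members was 0.54, 28 of 29 were positive and 23 of 29 had an unadjusted p under 0.05 (5.06% of all genes), but 0 passed, with a smallest limma adjusted p of 0.909. Without Klebsiella replicate 3 the median was 0.10, with 18 of 29 positive. Leaving out Klebsiella replicate 2 gave 0.14, and leaving out Lactobacillus replicate 2 also gave 0.14. With Klebsiella replicate 3 and Lactobacillus replicate 2 both left out, the libraries of high Hoxb6, it was -0.04 and 11 of 29 were positive. The differences of Mylk, Myocd, Flna and Tpm1 were then 0.032, 0.042, 0.084 and 0.15, and those of Myh11, Acta2, Actg2 and Des were negative. Between leaving out Klebsiella replicate 3 and leaving out Klebsiella replicate 4, the difference of Myh11 went from 0.11 to 0.70, that of Acta2 from 0.087 to 0.51, that of Mylk from 0.11 to 0.68 and that of Kit from 0.12 to 0.43. The median log2 difference of the members was 0.13 without the pair with high Ctrb1. With log2 Hoxd13, a gene of distal gut identity, as a covariate that median was 0.18.

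**Figure D3:**
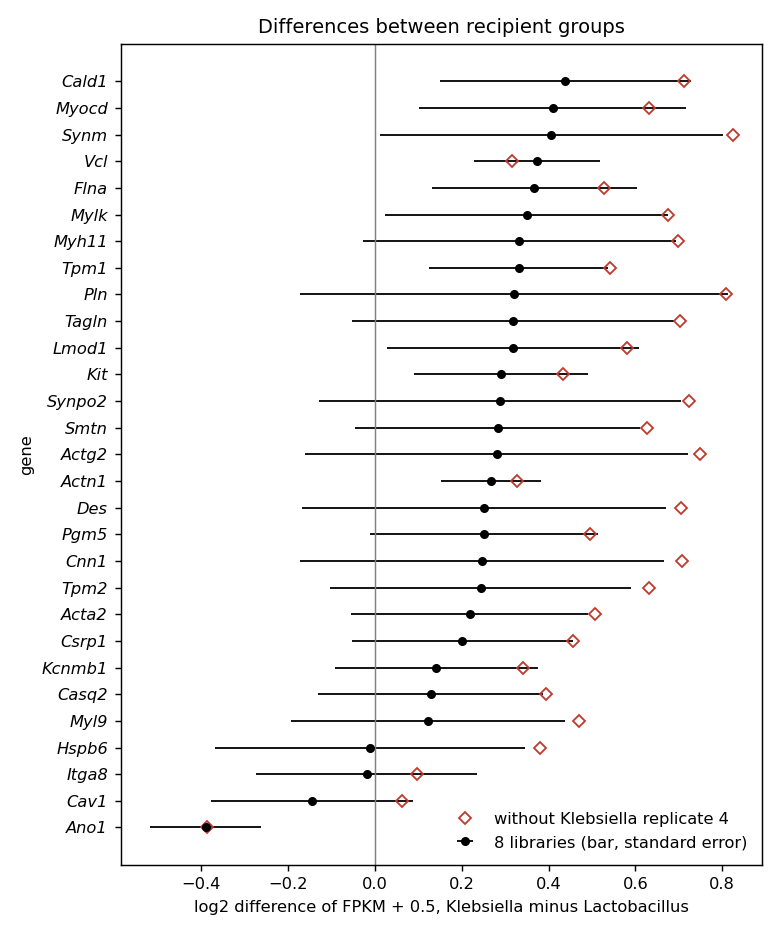
Black points are log2 differences of FPKM + 0.5 between recipient groups (Klebsiella minus Lactobacillus, 4 libraries each) with their limma standard errors, and red diamonds are the same without Klebsiella replicate 4. Without that library 28 of 29 differences are positive; Ano1 stays at -0.39.

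The second comparison asked whether the make-up of the muscle signal, apart from its amount, differed between the groups. It took 6 ratios between members and exact permutation (two-sided, 70 assignments), for which the smallest p is 0.0286. A single ratio at that p could not pass after adjustment over 6. The Acta2 to Actg2 ratio of FPKM was 0.898, 0.746, 0.580 and 1.21 in Klebsiella and 0.716, 0.918, 0.873 and 0.972 in Lactobacillus libraries. It was thus lowest in the library richest in muscle transcripts and highest in the poorest, and the log2 ratio differed by -0.06 between the groups (exact permutation p 0.886, adjusted p 1.00).

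Kit stood highest against Myh11 in the libraries of lowest muscle score, but the ratio did not follow the score throughout. The Kit to Myh11 ratio was 0.135, 0.177, 0.167 and 0.293 in Klebsiella and 0.130, 0.313, 0.202 and 0.159 in Lactobacillus libraries. The libraries with the lowest muscle scores, Klebsiella replicate 4 and Lactobacillus replicate 2, had the highest ratios. The log2 ratio differed by -0.04 between the groups (exact permutation p 0.914, adjusted p 1.00).

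Flna against Myh11 was at 2.25 in Klebsiella replicate 4 and between 1.15 and 1.47 in the other 7 libraries. Ano1 against Myh11 was at 0.316, 0.359, 0.232 and 0.813 in Klebsiella and 0.440, 0.745, 0.837 and 0.586 in Lactobacillus libraries. Its log2 ratio differed by -0.72, the largest of the 6 differences, with overlapping groups (exact permutation p 0.143, adjusted p 0.857). That difference was -1.08 without Klebsiella replicate 4 and -0.48 without Klebsiella replicate 3. For Tagln, Flna and Myocd against Myh11 the differences were -0.01, 0.03 and 0.08 (adjusted p 1.00 for each, exact permutation test). The log2 ratio of Myocd uses FPKM + 0.5 and is therefore compressed at these low levels.

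**Figure D4:**
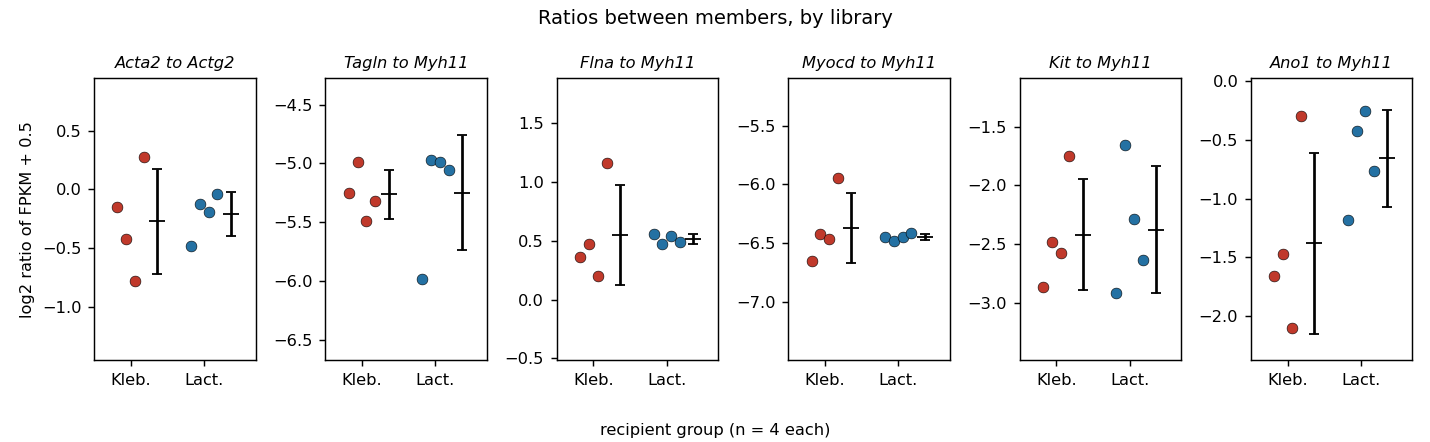
Each panel shows 1 log2 ratio of FPKM + 0.5 in the 4 Klebsiella (red) and 4 Lactobacillus (blue) libraries, with mean and SD to the right of each group; each panel has its own axis position and the same axis length. Points within a group run from replicate 1 on the left to replicate 4 on the right, and Klebsiella replicate 4 is the highest Klebsiella point for Acta2 to Actg2, Flna, Myocd, Kit and Ano1.

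Other genes of the contraction pathway, from a list that holds no member, varied less in their mean score. Of 31 such genes 30 were tested (Oxtr was below the filter); 21 differences were positive and 9 negative (median 0.14), and 0 passed. Their mean log2 score was highest in Klebsiella replicate 3 (4.47) and 3.95 in both Klebsiella replicate 4 and Lactobacillus replicate 2. Of the 30, 13 were highest in Klebsiella replicate 3 (14.5% of all genes tested) and 11 lowest in Klebsiella replicate 4 (19.2%). Some had the full order of the contractile genes: in these 2 libraries Ppp1r12b was at 63.2 and 25.9 FPKM, and Mrvi1 at 23.7 and 9.87. Myl6, the essential light chain shared by muscle and non-muscle myosin, was at 1123 to 1585 FPKM. Ppp1cb and Rhoa, the phosphatase subunit and the small GTPase that control light chain phosphorylation in many cells, had log2 differences of 0.19 and 0.11.

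Among 29 other genes of the muscle cytoskeleton, 27 were tested, since Ilk and Mylk4 were below the filter. Of these, 21 differences were positive, 6 negative and 0 passed. In this list 17 of 27 genes were highest in Klebsiella replicate 3 and 16 of 27 lowest in Klebsiella replicate 4. Dmpk, the myotonic dystrophy protein kinase, had the order of the contractile genes, with 211 FPKM for Klebsiella replicate 3 but 70.9 for Klebsiella replicate 4. Its log2 difference was 0.26 (SE 0.31). Fhl1, a LIM protein of muscle, did not: it was at 421 FPKM in Lactobacillus replicate 4 and between 126 and 235 elsewhere. Itgb1 and Tln1, an integrin and its talin link to actin, had log2 differences of 0.20 and 0.22. Ilk, the integrin-linked kinase, was listed at 0.0471 to 0.216 FPKM, and 89.7% of its exonic bases are shared with Rrp8 or Taf10.

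Marker lists of the other cells in the wall were set beside the muscle score of each library. Enteric neurons were lowest where muscle was lowest, with a mean log2 score of 1.98 in Klebsiella replicate 4 and 8 of 9 tested genes lowest there. They were highest, at 3.41, in Lactobacillus replicate 2, which had the second lowest muscle score. Uchl1, a neuronal hydrolase, was at 10.98 FPKM for Klebsiella replicate 4 but 44.8 for Lactobacillus replicate 2. The neuron score was also low, 2.25, in Lactobacillus replicate 3, whose muscle score was the third lowest.

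Glia and fibroblasts were lowest in Klebsiella replicate 4 as well, but across narrower ranges. The glial score was 1.40 there and 1.52 to 2.09 elsewhere, and the fibroblast score 5.86 against 6.08 to 6.29. The epithelial score did not fall with muscle: it was 9.29 in Klebsiella replicate 4 and 8.92 to 9.33 elsewhere. Epcam was at 689 FPKM there against 611 to 683. Lgals4, the epithelial gene of highest mean, was lowest there, at 3025 FPKM against 3140 to 4073. It was the only 1 of the 10 epithelial genes to be lowest in that library. The pericyte score was highest in Klebsiella replicate 3 (2.81) and lowest in Lactobacillus replicate 2 (2.20), next to Klebsiella replicate 4 (2.22). Of its 8 genes, 3 were highest in Klebsiella replicate 3, and 1, Rgs5, was lowest in Klebsiella replicate 4. The part of these cell types, of base quality and of position along the gut in the muscle levels was not tested.

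Striated muscle was close to absent. Myh4 was listed at 0 in all libraries and Myh1 at up to 0.0268 FPKM, while the 13 genes of that list summed to 13.2 to 22.3 FPKM across the Klebsiella and 10.9 to 16.5 in Lactobacillus libraries. Acta1, skeletal alpha-actin, had the highest mean of that list and was at 1.17 to 9.997 FPKM. Markers of mesothelium, the cell layer outside the muscle coat, were also low: Upk3b was at 0.0359, 0.0442, 0.156 and 0.718 FPKM across the Klebsiella and at 1.45, 1.37, 0.249 and 0.872 in Lactobacillus libraries. The 5 mesothelial genes summed to 0.884, 1.16, 1.696 and 3.15 FPKM across Klebsiella replicates 1 to 4, and to 3.97, 4.67, 1.64 and 3.08 for the Lactobacillus libraries. Lactobacillus replicate 3 was thus below Klebsiella replicate 3, and Upk1b, the gene of highest mean, was at 0.635 to 1.09 FPKM throughout. Adipocyte genes, of the fat attached to the gut, summed to 2.39 to 21.8 FPKM across the Klebsiella and 27.9 to 262 FPKM in Lactobacillus libraries, with the most in Lactobacillus replicate 4; their part in the muscle levels was not tested.

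**Figure D5:**
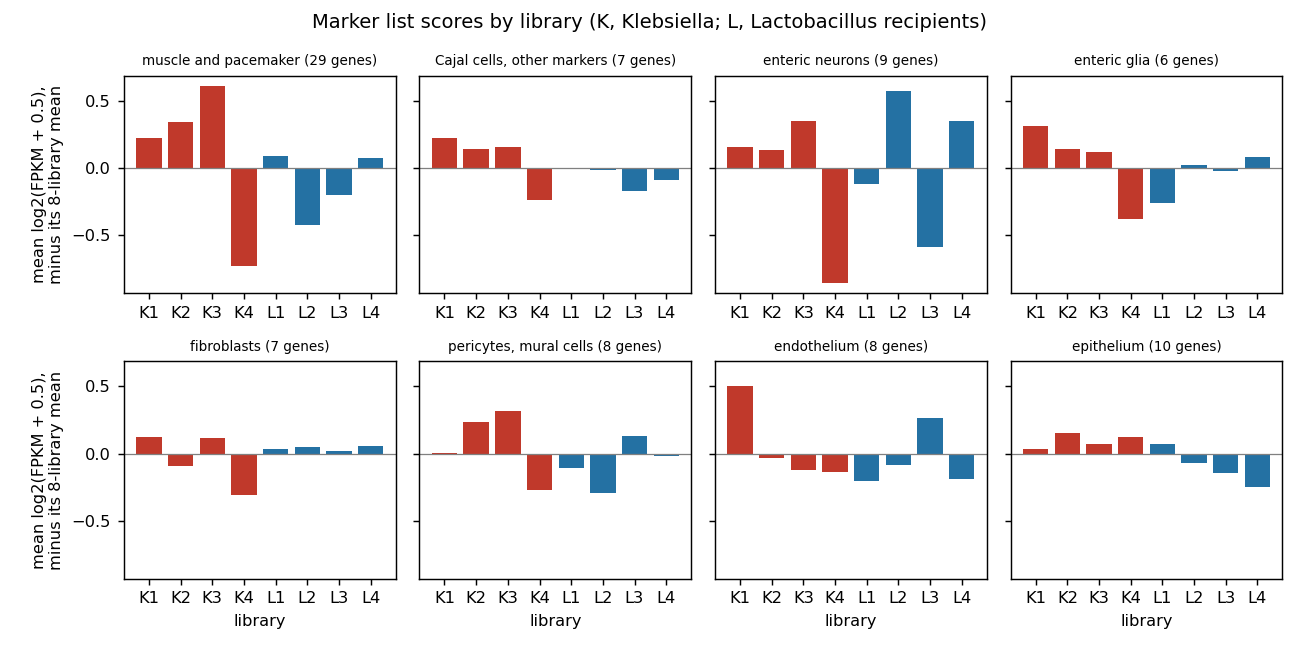
Bars give the mean log2(FPKM + 0.5) of a marker list in each library minus the mean over the 8 libraries, with Klebsiella recipients (K1 to K4) in red and Lactobacillus recipients (L1 to L4) in blue, on 1 scale for all panels. Muscle and neurons are both lowest in K4 and part in L2, and the epithelial list moves least, over 0.40 log2 units.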

How the data were processed

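The authors deposited FPKM values for 49585 gene identifiers in 8 libraries, and read counts after their filter with the percent of bases at quality 30 or above. DESeq2 1.10.1, HTSeq 0.6.0, STAR 2.5.1b and CASAVA are named, without their roles, per the submitters' processing notes; no build or annotation is named there. Symbols for 49326 identifiers, and positions, came from GENCODE M21 (GRCm38).

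Values were analysed as log2(FPKM + 0.5), which understates changes of low genes, for the 16865 genes with a mean of at least 0.5 FPKM. Groups were compared over all of these with limma 3.58.1 in R 4.3.3 (mean-variance trend, two-sided, Benjamini-Hochberg, threshold 0.05). Ratios were tested with exact permutation over samples. Each mouse gave 1 library. Reads were recovered as whole multiples of the value of 1 read (relative tolerance 1e-09). Recovery succeeded for all 26963 genes that had a value above 0 in 2 or more libraries. Besides counting error, the spread of these reads over libraries holds differences between mice and in depth. Python 3.11.15 was used for the rest. The fit was tested on simulated data. No 2 libraries were copies (correlations across genes of 0.949 to 0.976).

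The members and lists were chosen with earlier results of these data known. Full statistics were given for 12 members fixed by role; other members by ranges and counts; of other lists, up to 4 genes of highest mean, besides genes a sentence turned on. Mkl1 and Mkl2 were matched as Mrtfa and Mrtfb. Alternatives were pseudocounts, filters, rescalings, the mouse number as a block, variance models, voom and each library left out.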

Additional observations from a re-analysis of the deposited data

Results flagged for a closer look

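Within each group of 4, the gap from the highest or lowest library to its neighbour was compared with the group's whole range, for the 29 genes, the 6 ratios and the muscle score. In 1 of 72 groups this share exceeded Dixon's critical value, at 0.915, while chance alone gives about 1 in 20. It was the log2 ratio of Tagln to Myh11 in Lactobacillus replicate 1, at -5.98, where the other Lactobacillus libraries lay between -5.06 and -4.97. Tagln had 43 reads in that library, and most of its exonic bases are shared with other genes.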

How the results depend on the processing

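No member and no other gene passed the adjusted threshold under any of the 21 alternatives of the gene test. No ratio passed under any of its 15, but these say little, because the exact test has too few assignments. With a pair of libraries left out, or with the mouse number as a block, its smallest possible p lies above the threshold. In the other settings a single ratio at the smallest p could not pass after adjustment over 6. Directions were less stable: 16 values for genes and ratios changed sign under alternatives planned at the outset and 13 under those chosen after seeing the data, as did the members' median (-0.04 without the libraries of high Hoxb6). The cause of these changes was not tested.

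Without the pair of libraries of high Hoxb6 (chosen after seeing the data) the log2 differences turned to -0.053 for Myh11, -0.18 for Actg2, -0.041 for Acta2, -0.13 for Des, -0.11 for Kcnmb1 and -0.027 for Pln, and the log2 ratios to 0.14 (Acta2 to Actg2), 0.15 (Tagln to Myh11) and 0.25 (Kit to Myh11). Without the pair of high Ctrb1, also added, Pln was at -0.026 and Kit to Myh11 at 0.0074. With log2 Hoxd13 as a covariate, also added, Pln was at -0.25 and Kit at -0.063. With a pseudocount of 0.1 Tagln to Myh11 was at 0.0012.

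Leaving out each library in turn moved the median difference of the members from 0.10 to 0.54 and the range of the muscle score from 1.04 to 1.34. It moved Actg2 from -0.021 to 0.75, Des from -0.0018 to 0.70, Kcnmb1 from -0.019 to 0.34 and Pln from -0.044 to 0.81, with each low end reached without Klebsiella replicate 3. Myocd moved from 0.22 to 0.63, Tpm1 from 0.20 to 0.54, Flna from 0.19 to 0.53 and Ano1 from -0.48 to -0.31. The ratios moved from -0.24 to 0.11 (Acta2 to Actg2), -0.26 to 0.078 (Tagln), -0.17 to 0.15 (Flna), -0.065 to 0.17 (Myocd), -0.27 to 0.20 (Kit) and -1.08 to -0.48 (Ano1), the last 5 each to Myh11.

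With the mouse number as a block 0 genes passed (1027 at an unadjusted p under 0.05), 0 members did and their median was 0.28. Deviations of same-numbered mice correlated at 0.19, -0.10, -0.06 and -0.16, and 1 of the 4 numbers correlated best with its own, so the block pairs mice by number only. With 4 mice a group the exact test cannot go below 0.0286, and Myocd, Tagln and Pln rest on few reads.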
